A study of Homo sapiens with 8 samples.

Results

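The SERPINB genes of chromosome 18q were followed across 4 isogenic human mammary epithelial cell lines. The 8 genes listed for this cluster (SERPINB5, SERPINB13, SERPINB4, SERPINB3, SERPINB7, SERPINB2, SERPINB10 and SERPINB8) were found by their Ensembl identifiers among the 56632 genes of the count table, and 7 of them were among the 18431 genes with enough counts to be tested. SERPINB10 was the gene left out by the filter on low counts. The genes lie between bases 61144191 and 61687013 of chromosome 18 in GRCh37, a stretch of 543 kb, with SERPINB4 and SERPINB3 on the minus strand and the other 6 on the plus strand.

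M1 is MCF10A, a spontaneously immortalized, non-tumorigenic line. M2 (MCF10AT1k.cl2) is MCF10A that was transfected with activated T24-HRAS and selected by growth as a xenograft. M3 (MCF10Ca1h) and M4 (MCF10CA1a.cl1) came from carcinomas that arose from such xenografts, so M2, M3 and M4 all carry that transfection history and M1 does not, and each is 1 line. Poly A+ RNA from 2 biological replicates per line was sequenced after 8 days of acinar culture in Matrigel, with 2% horse serum for all lines. M1 and M2 received EGF (10 ng/ml) and the medium of M3 and M4 held none, so line and medium cannot be told apart in any comparison of M3 or M4 with M1 or M2. M2 against M1 and M4 against M3 do not cross that divide.

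Library totals were 69669970 to 107350344 counts. Expression is given as CPM, each count scaled to its library size, with library sizes adjusted by the TMM method, as mean ± SD of 2 libraries. The 6 line comparisons came from edgeR's quasi-likelihood test over all tested genes with Benjamini-Hochberg adjustment, and share libraries. A gene was called when its adjusted p was under 0.05 and its absolute log2 fold change above 1, and "rose" and "fell" are used only for such calls. The M2 libraries resembled each other more (Spearman rho across genes 0.9982) than those of the other lines did (0.9707 to 0.9861). Tables of the study place the library labelled M1 replicate 2 with M2 and the library labelled M2 replicate 1 with M1. The labels are followed here, and calls that change under that alternative placement are given with each gene. HRAS, the transfected gene, was not called between M2 and M1: it stood at 146.4 ± 10.9 CPM in M1 and 156.7 ± 4.46 CPM in M2 (log2 fold change 0.10, adjusted p = 0.736), and at 298.2 ± 40.9 CPM in M3 and 343.8 ± 12.2 CPM in M4.

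Clade B serpins are intracellular relatives of the plasma serpins, and most trap a protease by a reactive loop that the protease cleaves. The 18q genes arose by local duplication and are known chiefly from stratified epithelia. They include maspin (SERPINB5), which is expressed in myoepithelial and basal mammary cells and does not inhibit proteases in the usual way, the cathepsin inhibitors SERPINB3, SERPINB4 and SERPINB13, and the plasminogen activator inhibitor SERPINB2.

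RefSeq promoter windows of 300 bases (250 before to 50 after the start site, GRCh38.p14) were available for 7 of the 8 genes, with 3 windows for SERPINB7. Those of SERPINB2 and SERPINB13 are printed because these genes had the largest rise and the largest fall between M1 and M4. Capitals mark matches to the AP-1 motif TGANTCA and to TATAAA, searched on both strands. The SERPINB2 window is chr18:63887455-63887754 and the SERPINB13 window chr18:63587093-63587392, both on the plus strand.
SERPINB2: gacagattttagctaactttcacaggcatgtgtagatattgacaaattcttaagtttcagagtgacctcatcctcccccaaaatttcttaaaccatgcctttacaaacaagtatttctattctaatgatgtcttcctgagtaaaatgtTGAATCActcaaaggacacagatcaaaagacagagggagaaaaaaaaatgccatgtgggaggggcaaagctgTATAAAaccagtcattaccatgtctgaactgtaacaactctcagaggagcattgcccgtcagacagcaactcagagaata
SERPINB13: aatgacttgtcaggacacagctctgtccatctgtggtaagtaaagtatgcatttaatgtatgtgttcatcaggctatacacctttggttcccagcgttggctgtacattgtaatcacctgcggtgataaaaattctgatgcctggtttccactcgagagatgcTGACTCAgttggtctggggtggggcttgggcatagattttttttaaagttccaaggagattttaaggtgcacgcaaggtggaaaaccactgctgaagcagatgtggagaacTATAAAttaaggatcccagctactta

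In SERPINB2 the AP-1 match lies 102 to 96 bases before the start site and TATAAA 30 to 25 bases before it. In SERPINB13 the AP-1 match lies 87 to 81 bases before the start site and TATAAA 25 to 30 bases after it. The AP-1 motif was found in 5 of the 7 genes (6 of 9 windows), against 7.71% of 35116 windows of the same length over all genes. The 5 were SERPINB5, SERPINB13, SERPINB7, SERPINB2 and SERPINB8, which include genes that rose and a gene that fell. TATAAA was found in 4 of the 7 genes, SERPINB13, SERPINB7, SERPINB2 and SERPINB8 (4 of 9 windows), against 11.5% of all windows. The GC box GGGCGG was found in SERPINB5 alone of the 7 (1 of 9 windows), against 45.0% of all windows. The p53 family half-site was found in none (0 of 9 windows), against 6.63%. The motifs do not overlap one another in the windows printed. A match says only that these letters are present.

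The windows of SERPINB3 (chr18:63661844-63662143) and SERPINB4 (chr18:63644207-63644506), both on the minus strand, are printed because they are nearly identical. Capitals mark the 4 bases at which they differ.
SERPINB3: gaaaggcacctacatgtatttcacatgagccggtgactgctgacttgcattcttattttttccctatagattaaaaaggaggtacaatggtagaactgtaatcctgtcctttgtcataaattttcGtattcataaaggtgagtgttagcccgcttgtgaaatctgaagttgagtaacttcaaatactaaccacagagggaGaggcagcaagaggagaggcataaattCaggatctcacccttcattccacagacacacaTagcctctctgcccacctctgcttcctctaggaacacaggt
SERPINB4: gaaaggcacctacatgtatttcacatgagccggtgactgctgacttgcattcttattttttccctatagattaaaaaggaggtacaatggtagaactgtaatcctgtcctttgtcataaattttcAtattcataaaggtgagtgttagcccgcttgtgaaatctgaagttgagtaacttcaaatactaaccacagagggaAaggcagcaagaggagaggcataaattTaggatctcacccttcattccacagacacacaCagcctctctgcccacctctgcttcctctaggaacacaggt

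Counted from 1 at the 5′ end of the window, with the SERPINB3 base first, the differences are G126A, G201A, C228T and T260C, so 98.7% of the 300 bases are identical. Neither window holds an AP-1, TATAAA or GC box match. The compared transcripts, 1707 bases long, were 95.7% identical, with 74 differing bases, and 24.9% of 50-base stretches of one occurred in the other. The division of reads between SERPINB3 and SERPINB4 is therefore uncertain, and values for the sum of both are given below.

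Between M1 and M4 the cluster moved in both directions. SERPINB2, SERPINB7, SERPINB5 and SERPINB8 rose and SERPINB13, SERPINB4 and SERPINB3 fell, so that all 7 tested genes were called, 4 higher and 3 lower, where 9.48% of all tested genes were called higher and 11.2% lower. In M3 against M1, SERPINB5 and SERPINB2 rose and SERPINB13 and SERPINB4 fell (2 higher and 2 lower, against 8.02% and 5.51% of all genes). In M3 against M2, SERPINB2 rose and SERPINB4 fell (1 and 1, against 2.95% and 1.2%). In M4 against M2, SERPINB2 rose and SERPINB13, SERPINB4 and SERPINB3 fell (1 and 3, against 6.98% and 6.94%). In M4 against M3, both grown without EGF, SERPINB13 and SERPINB4 fell (0 and 2, against 3.99% and 6.3%). In M2 against M1 edgeR called none of the 7 genes, 2 had an unadjusted p under 0.05, DESeq2 also called 0, and 2.26% of all genes were called higher and 1.11% lower.

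**Figure D1:**
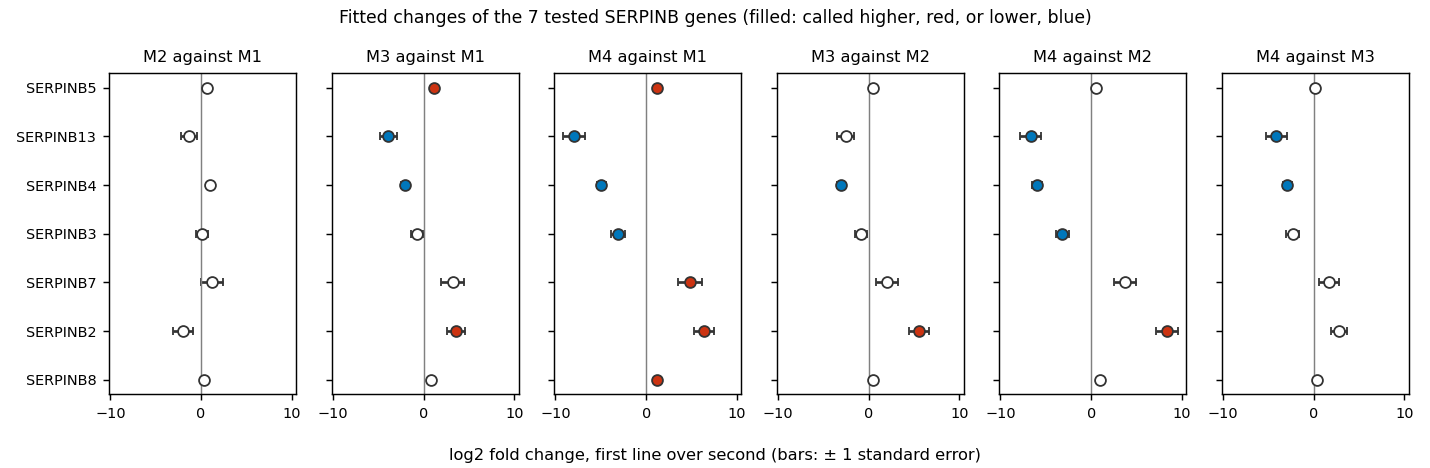
Log2 fold changes (horizontal axis, first line over second) of the 7 tested SERPINB genes in the 6 comparisons; bars are ± 1 standard error from edgeR, and filled points are calls (red higher, blue lower). All 7 points are filled in M4 against M1 and none in M2 against M1.

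Under the alternative placement of libraries, 4 genes were called in M4 against M1 and 5 in M4 against M2, and 0 in each of the other 4 comparisons. Fewer of all tested genes were called too, in either direction: 0.0% in M2 against M1, 1.19% in M3 against M1, 8.46% in M4 against M1, 1.16% in M3 against M2, 10.2% in M4 against M2 and 4.5% in M4 against M3. In those fits edgeR gave an unadjusted p under 0.05 to 0 of the 7 genes in M2 against M1, 3 in M3 against M1, 6 in M3 against M2 and 4 in M4 against M3. By the labels the median log2 fold change of the 7 genes was 1.20 in M4 against M1 and that of all tested genes -0.017, but the 7 values ran in both directions.

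SERPINB5, or maspin, was the abundant member. It lies at 61144191 to 61172318 on the plus strand and stood at 567.3 and 409.5 CPM in the M1 libraries, 781.7 and 768.6 CPM in M2, 1059 and 1110 CPM in M3 and 1156 and 1165 CPM in M4. No line's libraries overlapped those of another, and the order of means was M4, M3, M2, M1. It ranked between 85th and 293rd of all genes by CPM and made up 87.4% to 94.5% of the summed CPM of the 8 genes in each library. Per kb of exon its level was 130.5 ± 29.8 CPM in M1 and 310.1 ± 1.80 CPM in M4, where SERPINB8 had 10.25 ± 1.14 CPM per kb.

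SERPINB5 rose 2.38-fold in M4 against M1 (log2 fold change 1.25, SE 0.187, edgeR adjusted p = 0.0027) and 2.22-fold in M3 against M1 (1.15, SE 0.187, adjusted p = 0.00578). Neighbours in the order of levels did not pass the test: the log2 fold change was 0.67 in M2 against M1 (adjusted p = 0.0841), 0.48 in M3 against M2 (0.173) and 0.10 in M4 against M3 (0.747, 95% interval -0.26 to 0.46). Without M1 replicate 2 the change in M3 against M1 was 0.94, under the 2-fold bound. Neither rise was called under the alternative placement, at 0.78 in M4 against M1 (adjusted p = 0.17) and 0.69 in M3 against M1 (0.316). An ATP5MC1 pseudogene lies inside SERPINB5 (mean CPM 0.0770 to 0.193 per line) and was not called in any comparison.

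**Figure D2:**
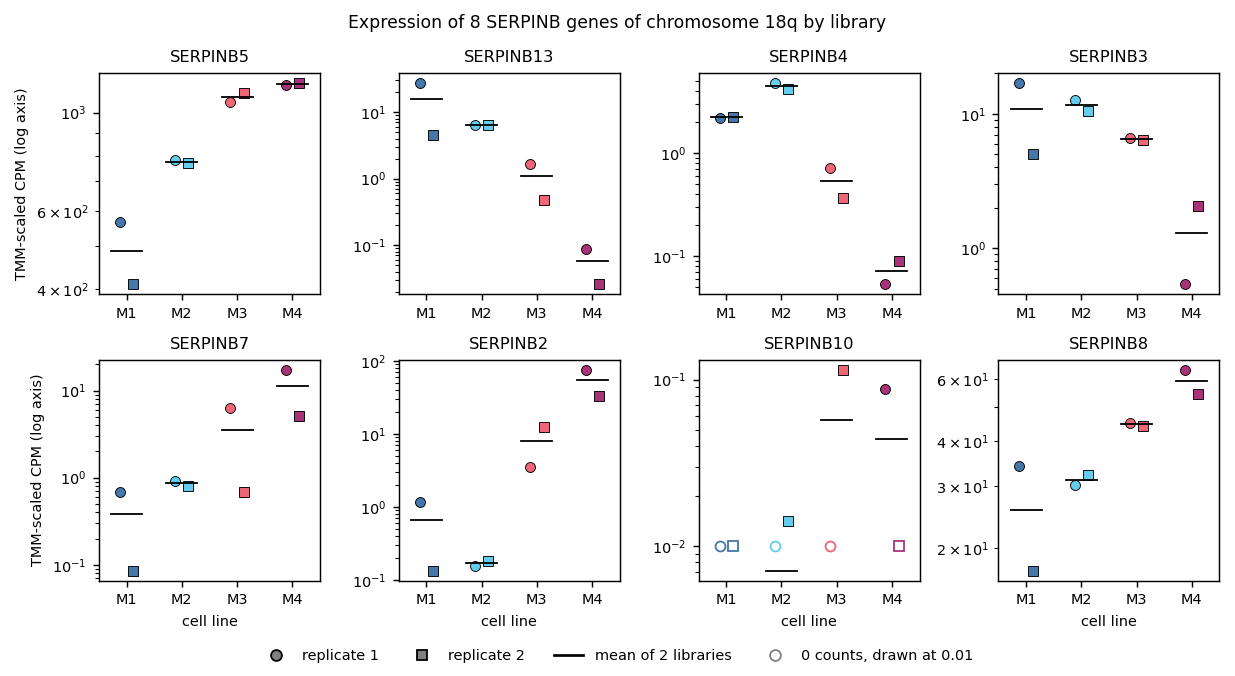
TMM-scaled CPM (vertical log axis) of the 8 SERPINB genes in each library of M1 to M4; filled circles are replicate 1, filled squares replicate 2, lines the mean of 2 libraries, and open symbols libraries with 0 counts, drawn at 0.01. SERPINB2 climbs to 76.4 and 33.3 CPM in M4 while SERPINB13 drops to 0.0881 and 0.0256 CPM, and the M1 libraries lie apart for SERPINB13, SERPINB3, SERPINB7 and SERPINB2.

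The cathepsin inhibitors were low in M4. SERPINB13 (headpin or hurpin, at 61254223 to 61271873 on the plus strand) inhibits the lysosomal cysteine proteases cathepsin L and cathepsin K. Its expected counts were 2246 and 367 for M1, 646 and 443 for M2, 133 and 42 for M3, then 10 and 2 for M4. These counts correspond to 27.1 and 4.48 CPM in M1, 6.34 and 6.30 CPM in M2, 1.68 and 0.482 CPM in M3, and 0.0881 and 0.0256 CPM in M4. The M1 libraries lay on both sides of the M2 libraries, and otherwise each line lay wholly below the one before it.

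SERPINB13 was 254.7-fold lower in M4 than in M1 (log2 fold change -7.99, SE 1.22, edgeR adjusted p = 0.00351). With any 1 library left out this fall was called (adjusted p up to 0.0339), but its size ran from -6.16 without M1 replicate 1 to -9.18 without M4 replicate 1 on the log2 scale. It was also called under the alternative placement (-8.09, adjusted p = 0.00873). SERPINB13 was also lower in M4 than in M2 (-6.67, adjusted p = 0.00868), in M4 than in M3 (-4.12, SE 1.12, 0.0467) and in M3 than in M1 (-3.87, SE 0.95, 0.0286). Those 3 calls were less firm. The call in M4 against M2 was lost without either M2 library or either M4 library (adjusted p 0.0512 to 0.063), that in M4 against M3 without either M2 library, either M4 library or M3 replicate 1, and that in M3 against M1 without M1 replicate 1, either M2 library or M3 replicate 2. Leaving out 1 library moved these log2 fold changes over -7.86 (without M4 replicate 1) to -6.12 (without M4 replicate 2), -5.31 (without M4 replicate 1) to -2.97 (without M3 replicate 1) and -5.02 (without M3 replicate 1) to -2.06 (without M1 replicate 1), respectively. Their adjusted p under the alternative placement was 0.0125 in M4 against M2, 0.0589 in M4 against M3 and 0.0874 in M3 against M1.

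SERPINB4 (squamous cell carcinoma antigen 2, at 61304493 to 61311490) inhibits chymotrypsin-like serine proteases such as cathepsin G and mast cell chymase. It had 2.19 and 2.24 CPM in M1, 4.75 and 4.14 CPM in M2, 0.707 and 0.367 CPM in M3 and 0.0529 and 0.0897 CPM in M4, from expected counts of 6 and 7 in M4. The libraries of the 4 lines did not overlap, and M2 had the highest level. SERPINB4 was 31.2-fold lower in M4 than in M1 (log2 fold change -4.96, SE 0.504, edgeR adjusted p = 0.000588) and 62.6-fold lower in M4 than in M2 (-5.97, SE 0.52, 0.000631). It was also lower in M3 than in M2 (-3.05, adjusted p = 0.00953), in M3 than in M1 (-2.04, 0.0139) and in M4 than in M3 (-2.92, 0.00956).

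The falls of SERPINB4 in M4 against M1 and against M2 were called with any 1 library left out and under the alternative placement (adjusted p = 0.00722 and 0.00693). The other 3 were not called with that placement (0.0891 in M3 against M1, 0.104 in M3 against M2 and 0.0533 in M4 against M3). They were also lost without M3 replicate 2 in M3 against M1 (0.0536), without either M2 library in M3 against M2 (0.0952 and 0.0791) and without M4 replicate 1 in M4 against M3 (0.0723).

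SERPINB3 (squamous cell carcinoma antigen 1, at 61322431 to 61329127) inhibits papain-like cysteine proteases such as cathepsins L, S and K. Its levels were 16.9 and 5.001 CPM in M1, 12.7 and 10.5 CPM in M2, 6.58 and 6.34 CPM in M3 and 0.538 and 2.06 CPM in M4. The M4 libraries were the lowest, and the M1 libraries spanned those of M2 and M3. SERPINB3 fell 8.50-fold in M4 against M1 (log2 fold change -3.09, SE 0.731, edgeR adjusted p = 0.017) and 9.002-fold in M4 against M2 (-3.17, SE 0.733, 0.0212). The difference between M4 and M3, -2.33, did not pass (0.0628). The first call was lost without M1 replicate 1 (0.0637) or M4 replicate 1 (0.0642) and the second without either M2 library or M4 replicate 1 (0.0836 to 0.113). Over these fits the log2 fold change ran from -4.32 (without M4 replicate 2) to -1.95 (without M1 replicate 1) in M4 against M1 and from -4.40 (without M4 replicate 2) to -2.49 (without M4 replicate 1) in M4 against M2, and both calls were kept under the alternative placement (0.0215 and 0.0416).

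The summed counts of SERPINB3 and SERPINB4 do not depend on how reads were divided between the pair. The sum was 19.1 and 7.25 CPM in M1, 17.5 and 14.6 CPM in M2, 7.29 and 6.71 CPM in M3 and 0.590 and 2.15 CPM in M4. It fell in M4 against M1 (log2 fold change -3.28, SE 0.657, edgeR adjusted p = 0.00897), against M2 (-3.56, 0.0097) and against M3 (-2.37, 0.043). In M3 it was not called against M1 (-0.91, 0.311) or M2 (-1.20, 0.293). The sum is mostly SERPINB3, so it does not show whether the falls of SERPINB4 in M3 depend on the division. The alternative placement kept the fall of the sum in M4 against M1 (0.0155) and M2 (0.0242) and lost that against M3 (0.0674). The ratio of SERPINB3 to SERPINB4 expected counts was 7.73 and 2.24 for M1, 2.67 and 2.53 for M2, 9.37 and 16.98 for M3, then 10.17 and 23.0 for M4. SERPINB3 lies within the span of SERPINB11, which is on the other strand and had counts in M4 replicate 1 alone (0.0353 CPM).

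The M1 libraries differed for most members, whichever way these moved between lines. SERPINB13, SERPINB3, SERPINB2, SERPINB7, SERPINB8 and SERPINB5 were all higher in M1 replicate 1, and SERPINB4 was alike in both. Keratins of differentiating squamous cells were higher in M1 replicate 1 as well, with KRT10 at 836.3 against 96.9 CPM and KRT1 at 70.8 against 0.378 CPM. In M2, M3 and M4 KRT10 was at 15.9 to 44.3 CPM and KRT1 at up to 0.128 CPM. The summed level of 23 squamous differentiation genes was 3073 CPM in M1 replicate 1 and 766.9 CPM in M1 replicate 2, against 2682 to 7485 CPM in the other 6 libraries. In those 6 most of the sum came from KRT6A and KRT6B, such as 1478 and 848.7 of 2704 CPM in M2 replicate 1. KRT6B (195.6 against 343.1 CPM), CNFN (7.97 against 9.60 CPM) and LCE3D (near 0) were lower in M1 replicate 1 than in M1 replicate 2. The part of the difference between the M1 libraries in the changes from M1 was not tested, and in bulk RNA fewer cells of a type and less RNA per cell cannot be told apart.

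SERPINB2 (plasminogen activator inhibitor 2, at 61538926 to 61571122 on the plus strand) inhibits urokinase and, less efficiently, tissue plasminogen activator. It showed the largest rise of the cluster. Its expected counts were 98 and 11 for M1, 16 and 13.47 for M2, 282 and 1072.49 for M3, then 8666 and 2599 for M4. Its levels were 1.18 and 0.134 CPM in M1, 0.157 and 0.185 CPM in M2, 3.56 and 12.3 CPM in M3, then 76.4 and 33.3 CPM in M4. Every M3 library was above every M1 and M2 library, and both M4 libraries were above both M3 libraries, while M1 and M2 overlapped.

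SERPINB2 rose 82.9-fold in M4 against M1 (log2 fold change 6.37, SE 1.06, edgeR adjusted p = 0.00496) and 321.0-fold in M4 against M2 (8.33, SE 1.20, 0.00433). It also rose in M3 against M1 (3.59, SE 0.958, 0.0377) and against M2 (5.54, SE 1.11, 0.0348), and the difference between M4 and M3, 2.79, did not pass (0.0707). The rise in M4 against M1 was called with any 1 library left out (adjusted p up to 0.0234), with log2 fold changes from 5.53 without M1 replicate 2 to 8.68 without M1 replicate 1, and under the alternative placement (6.37, 0.0153). That in M4 against M2 was called with that placement (0.00879) but not without M2 replicate 1 (0.072) or M2 replicate 2 (0.0672), and ran from 7.61 without M4 replicate 1 to 8.83 without M4 replicate 2. Both rises in M3 were lost with that placement (0.125 and 0.0668). Of the libraries, leaving out M1 replicate 2, M3 replicate 2 or any M2 or M4 library lost the call in M3 against M1, and leaving out M3 replicate 2 or any M2 or M4 library lost that in M3 against M2. Their log2 fold changes ran from 2.44 (without M3 replicate 2) to 5.88 (without M1 replicate 1) and from 4.38 (without M3 replicate 2) to 6.18 (without M3 replicate 1).

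SERPINB8 (at 61637263 to 61687013 on the plus strand), an inhibitor of furin, was expressed in every library. It had 34.0 and 17.3 CPM in M1, 30.2 and 32.2 CPM in M2, 45.1 and 44.4 CPM in M3 and 63.7 and 54.4 CPM in M4. The M1 libraries lay on both sides of M2, M3 lay above both and M4 above M3. SERPINB8 rose 2.30-fold in M4 against M1 (log2 fold change 1.20, SE 0.282, edgeR adjusted p = 0.0157) and in no other comparison, with 0.92 in M4 against M2 (0.0507) and 0.80 in M3 against M1 (0.0781). The call was lost without M1 replicate 2 (0.80, under the 2-fold bound) and without M4 replicate 1 (0.0772), and the change was 1.79 without M1 replicate 1. SERPINB8 rose under the alternative placement in M4 against M2 (1.25, 0.0334) and not in M4 against M1 (0.88, 0.0958).

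SERPINB7 (megsin, at 61420169 to 61472610 on the plus strand) is an epidermal protease inhibitor whose loss of function causes a palmoplantar keratosis. It had 0.677 and 0.0854 CPM in M1, 0.923 and 0.796 CPM in M2, 6.32 and 0.689 CPM in M3 and 17.4 and 5.06 CPM in M4. The M3 libraries differed widely, and M3 overlapped both M2 and M4. SERPINB7 rose 29.4-fold in M4 against M1 (log2 fold change 4.88, SE 1.32, edgeR adjusted p = 0.0291). In M4 against M2 the change was 3.71 (0.0707) and in M3 against M1 3.19 (0.109). The call was lost without M1 replicate 2, either M2 library or M4 replicate 1 (0.0692 to 0.109), and under the alternative placement (3.81, 0.105). Its log2 fold change ran from 3.73 without M4 replicate 1 to 7.04 without M1 replicate 1.

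SERPINB10 (bomapin, at 61575192 to 61603345 on the plus strand), known from myeloid cells, was near the limit of detection. It had 0 expected counts in 5 of the 8 libraries, 0.53 in M2 replicate 2, 9.51 in M3 replicate 2 and 10 in M4 replicate 1. A count of 0 allows up to 3 counts, or 0.0295 to 0.0384 CPM in those 5 libraries, for counting error only. No fold change is given. Its span lies between SERPINB2 and SERPINB8, and reads of overlapping transcripts cannot be assigned with certainty, since strand use in the counting is not given in the sources used here.

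Markers of macrophages and monocytes, other known sources of SERPINB2, SERPINB8 and SERPINB10, were examined beside these genes. The defining markers PTPRC and AIF1 were at 0 in 7 and 8 of the 8 libraries, with PTPRC at 0.0366 CPM in M1 replicate 2. The summed CPM of the 6 markers was 21.3 to 40.6 for M1, 10.02 to 10.4 for M2, 7.21 to 17.4 for M3, then 23.0 to 27.1 for M4. None of the 4 tested markers rose in M4 or M3 against M1. Of all tested genes, 9.48% rose and 11.2% fell in M4 against M1, and 8.02% and 5.51% in M3 against M1. By the labels CD14 and LYZ fell in both comparisons, and ITGAM fell in M3 against M1 (log2 fold change -4.01, edgeR adjusted p = 0.0205). LYZ rested on 13 and 38 counts in M1. None of these falls was called under the alternative placement, with adjusted p of 0.317 for CD14 in M3 and 0.0703 in M4. It was 0.73 and 0.682 for LYZ, and 0.189 for ITGAM in M3. The largest marker in M4 was CSF1R, at 11.65 and 1.71 CPM in M1 and 20.01 and 24.6 CPM in M4. Its log2 fold change in M4 against M1 was 1.74 (edgeR adjusted p = 0.135). CSF1R was not called by the labels and rose in M4 against M2 under the alternative placement.

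Epithelial markers moved with the lines too. The summed CPM of 6 basal markers was 6808 to 14900 over the libraries, mostly from KRT5 and KRT17. KRT14 was at 17.7 and 8.26 CPM in M1 and 2.30 and 2.74 CPM in M4. In M4 against M1 1 of the 6 rose (LAMA3) and 3 fell (KRT14, TP63 and KRT5, with log2 fold changes of -2.37, -1.38 and -1.26), or 0 and 3 under the alternative placement. KRT17 (0.96) and ITGB4 (0.37) were not called. Luminal markers summed to 1269 to 4555 CPM, mostly from KRT8 and KRT18. In M4 against M1 3 of the 6 luminal markers rose (KRT18, EPCAM and KRT8, at 2.00, 1.57 and 1.27). In the same comparison 1 fell (GATA3, -2.47), and under the alternative placement the counts were 2 and 1. KRT19 (-1.77, edgeR adjusted p = 0.0526) and ESR1 (-0.60, 0.528) were not called. Of all tested genes, 9.48% rose and 11.2% fell in M4 against M1. Mesenchymal markers summed to 83.4 to 1910 CPM over the libraries, mostly from VIM (55.5 CPM in M1 replicate 1 to 1899 CPM in M3 replicate 1), with COL1A1 at 6.07 to 25.5 CPM and COL1A2 at 0 throughout, and none of the 4 tested was called in any comparison. The part of these markers in the SERPINB values was not tested.

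Along the chromosome the 3 genes that fell were next to one another. SERPINB13, SERPINB4 and SERPINB3 lie 110.0, 160.3 and 178.2 kb from the start of SERPINB5, which rose, and are followed by SERPINB7 at 276.0 kb, SERPINB2 at 394.7 kb and SERPINB8 at 493.1 kb, which rose. This order is a description of 7 genes, and it was not tested against other orders.

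**Figure D3:**
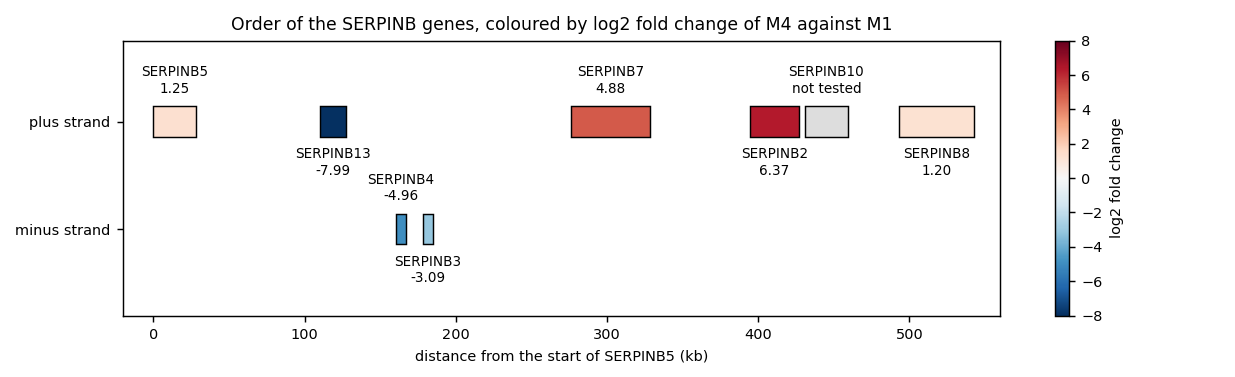
The 8 SERPINB genes drawn to scale (horizontal axis, kb from the start of SERPINB5) on the plus and minus strands, coloured and labelled by the log2 fold change of M4 against M1. The 3 genes that fell (-7.99, -4.96 and -3.09) lie together between SERPINB5 and SERPINB7.

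Genes around the cluster were called in both directions. Of 27 other tested genes within 5 Mb of the cluster, 2 were called higher and 3 lower in M4 against M1 (7.41% and 11.1%). Their median log2 fold change was -0.20. Over 190 other tested genes of 18q, 19 were called in each direction (10.0% and 10.0%), with a median of -0.04. Of all tested genes, 9.48% were called higher and 11.2% lower. In M3 against M1 the counts were 3 and 1 of the 27 genes (11.1% and 3.7%) and 15 and 6 of the 190 (7.89% and 3.16%). The shares of all tested genes there were 8.02% and 5.51%. The nearest tested neighbour before the cluster, VPS4B, an ATPase of endosomal sorting 54.5 kb away, averaged 77.5 ± 10.0 CPM for M1 and 86.2 ± 0.548 CPM for M4 (log2 fold change 0.15, edgeR adjusted p = 0.463). The nearest after it, the cadherin CDH19 at 2481.3 kb, rose in M3 against M1 (1.79, 0.047) and fell in M4 against M3 (-2.81, 0.0159). The neighbours called in most comparisons, 4 each, were PMAIP1 (Noxa, a pro-apoptotic BCL2 family member), at 2.81 in M4 against M1 (0.000867), and the lncRNA gene ENSG00000267279, at 0 in both M1 libraries and 1.30 ± 0.0225 CPM in M4. All these neighbour calls are by the labels, and whether they hold under the alternative placement is not given here.

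**Figure D4:**
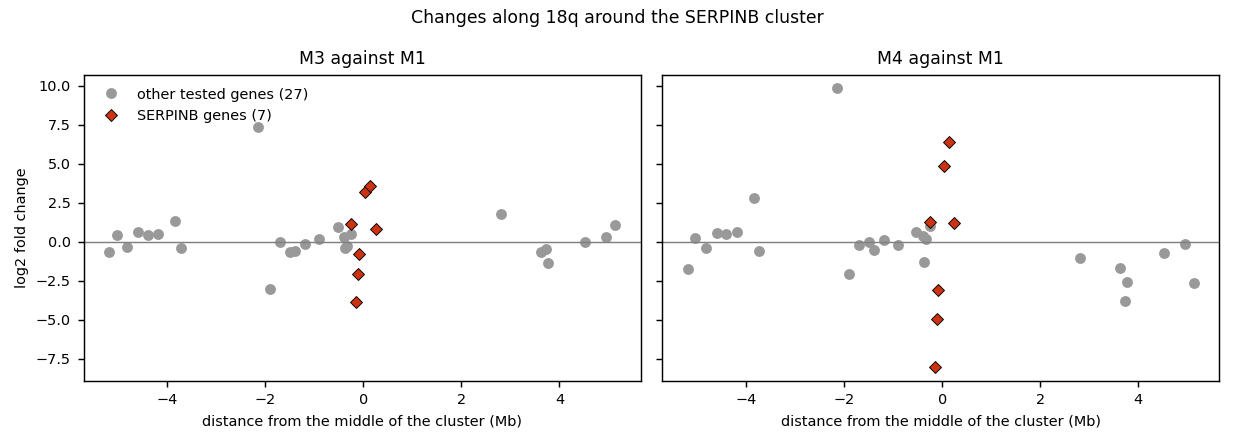
Log2 fold change (vertical axis) of the 7 tested SERPINB genes (red diamonds) and of 27 other tested genes (grey) against distance from the middle of the cluster in Mb, for M3 against M1 and M4 against M1. The SERPINB genes spread from -7.99 to 6.37 in M4 against M1 within 543 kb, while the median of the grey genes is -0.20.

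Of the 5 other clade B serpins listed, 2 could be tested. SERPINB1, a neutrophil elastase inhibitor encoded on chromosome 6, had 44.4 and 35.8 CPM in M1, 24.01 and 21.5 CPM in M2, 123.5 and 151.1 CPM in M3 and 161.9 and 140.8 CPM in M4. It rose in M3 against M1 (log2 fold change 1.78, SE 0.175, edgeR adjusted p = 0.00104) and in M4 against M1 (1.92, SE 0.176, 0.000425), in M3 against M2 (2.59) and in M4 against M2 (2.73). The alternative placement gave these 4 calls too (0.00973 to 0.0479). SERPINB6 was not called in any comparison (64.6 to 133.6 CPM). SERPINB9 was listed at 0 in every library, and SERPINB11 and SERPINB12, which lie in the 18q cluster, reached 0.0353 and 0.0705 CPM.

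The proteases these serpins inhibit changed one by one. Of 9 listed, 7 were tested, and 3 rose and 2 fell in M4 against M1, with a median log2 fold change of 0.60 against -0.017 for all genes, of which 9.48% rose and 11.2% fell. Under the alternative placement the counts were 1 and 1. PLAU (urokinase), the target of SERPINB2, had 17.3 and 48.2 CPM in M1, 42.3 and 40.0 CPM in M2, 32.2 and 30.3 CPM in M3 and 216.7 and 190.0 CPM in M4, and rose in M4 against M1 (2.64, SE 0.416, edgeR adjusted p = 0.00362), M2 (2.31, 0.00833) and M3 (2.70, 0.00804). All 3 were called under the alternative placement (0.00922 to 0.0189). PLAT (tissue plasminogen activator) had 281.4 and 667.6 CPM in M3 and 20.2 and 41.5 CPM in M4, and fell in M4 against M3 (-3.94, 0.0198) and M1 (-2.44, 0.0448). Under the alternative placement PLAT fell in M4 against M3 (0.0252) and M2 (-2.77, 0.0338).

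Among the lysosomal cathepsins, CTSV (cathepsin V, a relative of cathepsin L found in thymus and epidermis) rose from 5.09 and 14.2 CPM in M1 to 164.7 and 436.2 CPM in M3 and 252.6 and 193.2 CPM in M4 (log2 fold change of M4 against M1 4.53, SE 0.628, edgeR adjusted p = 0.00246). CTSL (cathepsin L) rose in M2 against M1 (1.09, 0.00624) and in M4 against M1 (1.04, 0.000978). Neither CTSV nor CTSL was called in any comparison under the alternative placement. CTSS (cathepsin S) fell in M4 against M1 (-3.72, 0.00225), M2 (-3.30, 0.00511) and M3 (-3.10, 0.00962), and these 3 calls were made with that placement (0.0121 to 0.0329). CTSK (cathepsin K) and FURIN, the target of SERPINB8, were not called, with log2 fold changes of -0.60 (0.298) and 0.60 (0.089) in M4 against M1. CTSG (cathepsin G) and CMA1 (chymase), targets of SERPINB4, were listed at 0 in every library.

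**Figure D5:**
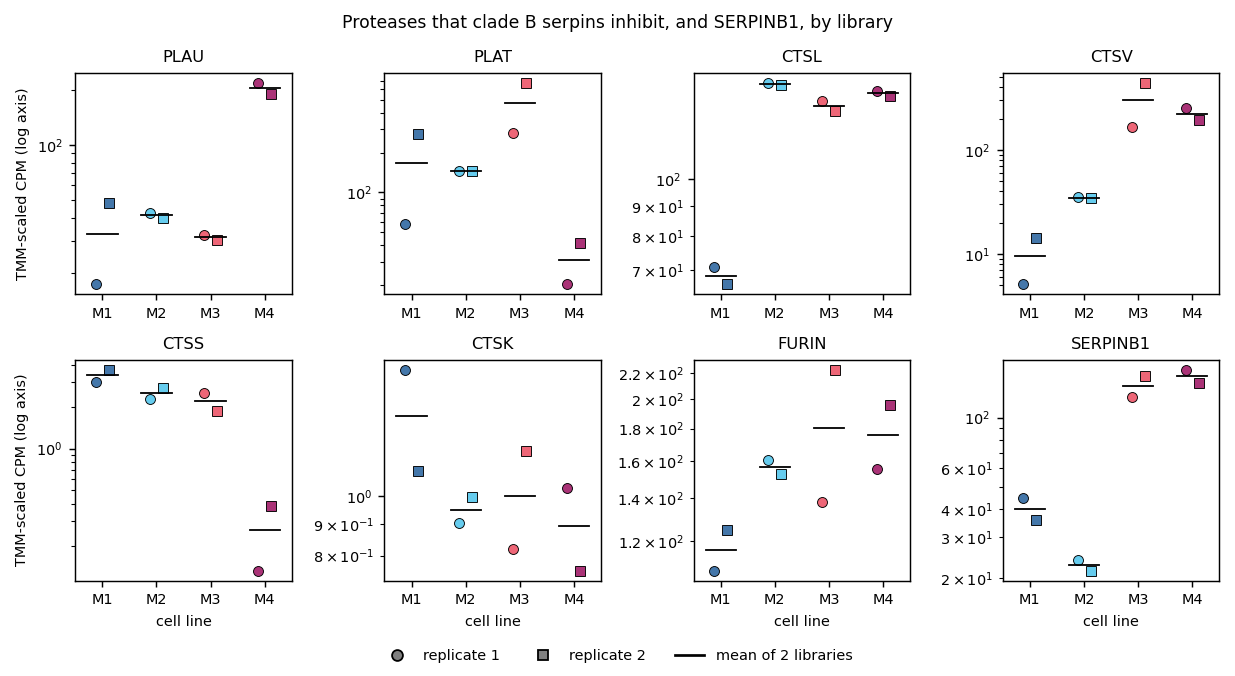
TMM-scaled CPM (vertical log axes, each with its own range) of 7 proteases and of SERPINB1 by library; circles are replicate 1, squares replicate 2, lines the mean of 2 libraries. PLAU is highest in M4 (216.7 and 190.0 CPM), PLAT lowest there (20.2 and 41.5 CPM), and CTSV is above 160 CPM in all 4 M3 and M4 libraries.

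Transcription factors of squamous and basal epithelium were also mixed. Of 16 tested, 3 rose and 5 fell in M4 against M1 (9.48% and 11.2% of all genes did), and 6 rose and 1 fell in M4 against M3 (3.99% and 6.3% of all genes). Under the alternative placement 2 rose and 3 fell in M4 against M1, and 5 rose and 1 fell in M4 against M3. PRDM1 (BLIMP1, a repressor active in epidermal differentiation) rose from 0.907 and 0.476 CPM in M1 and 1.19 and 1.22 CPM in M2 to 5.29 and 5.21 CPM in M3 and 31.3 and 24.5 CPM in M4 (log2 fold change of M4 against M1 5.33, SE 0.357, edgeR adjusted p = 0.000166). ETS1 rose in M4 against M1 (2.63, 0.000588). EHF, an epithelial ETS factor, fell in M4 against M1 (-1.83, 0.00327), as did ZNF750, a regulator of late epidermal differentiation (-1.37, 0.0111). PRDM1 and ETS1 kept these calls under the alternative placement (0.0037 and 0.00234) and EHF and ZNF750 did not.

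Of 20 tested squamous differentiation genes, 5 rose and 7 fell in M4 against M1, where 9.48% of all genes rose and 11.2% fell. Their median log2 fold change was 0.88, against -0.017 for all genes. In M4 against M3, 3 rose and 0 fell, where 3.99% of all genes rose and 6.3% fell. Under the alternative placement the counts were 4 and 2 in M4 against M1 and 1 and 0 in M4 against M3. The genes called most often were DSG1 (desmoglein 1), KLK7 (a stratum corneum protease), KRT6B (a keratin of activated keratinocytes) and SPRR2D (a cornified envelope protein). DSG1 fell from 3.78 and 1.93 CPM in M1 to 0.0441 and 0.0384 CPM in M4, and was at 0 in both M3 libraries. KLK7 fell in M4 against M1 (-3.51, edgeR adjusted p = 0.00354) and rose in M4 against M3 (4.42, 0.00781). KRT6B rose in M4 against M1 (3.19, 0.000341) and SPRR2D did too (8.30, 0.00151), both with no call in M4 against M3. KLK7 and SPRR2D were called in M4 against M1 under the alternative placement too (0.0353 and 0.028), and DSG1 and KRT6B were not.

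The pattern of each member over the libraries was compared with those of genes elsewhere in the genome. The genes named are those with the highest r, so a high r was selected for. Likeness was measured as Pearson r of log2(CPM + 0.5) over the 8 libraries among 13288 genes with a mean of at least 1 CPM, as a description over points that share lines. For SERPINB5 the most alike were ECT2 (0.991), PCNP (0.99) and STAG1 (0.989). For SERPINB2 they were GFPT1 (0.996), SNRK (0.993) and ABCF3 (0.989), which varied far less, with GFPT1 at 40.7 to 112.1 CPM. For SERPINB13 they were AMACR (0.992), TRPM4 (0.99) and UQCRFS1 (0.99), which also varied far less, with UQCRFS1 at 125.3 to 221.9 CPM. For SERPINB4 they were ENSG00000261005 (0.992), TCEANC2 (0.985) and HMGN3 (0.98), which varied far less too, with TCEANC2 at 8.90 to 13.9 CPM. For SERPINB3 they were SUFU (0.984), DCXR (0.981) and PPP5C (0.981), which again varied far less, with PPP5C at 88.1 to 162.7 CPM. For SERPINB7 they were ENSG00000248161 (0.99), SFTA1P (0.983) and RNASE7 (0.978), an antimicrobial ribonuclease of skin. RNASE7 had 1.20 and 0.805 CPM in M1 and 32.2 and 14.4 CPM in M4. ENSG00000248161 varied far less than SERPINB7, at 0.561 to 2.27 CPM. For SERPINB8 they were ZDHHC2 (0.986), PCYT2 (0.98) and SPRYD7 (0.975). Between members, r was highest for SERPINB5 with SERPINB8 (0.92) and SERPINB2 with SERPINB8 (0.88), and lowest for SERPINB4 with SERPINB2 (-0.96). It was 0.86 for SERPINB13 with SERPINB4.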

How the data were processed

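Poly A+ RNA of 8 libraries (M1 to M4, 2 biological replicates each) was measured by paired-end RNA-seq. The authors trimmed reads with Trimmomatic, aligned them with STAR to hg19 and deposited RSEM expected counts per gene on GENCODE release 19. Tool versions and strand use are not given in the sources used here. Of the deposited values, 12.8% were not whole, and all were rounded. Groups came from the sample labels.

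Library totals of 69669970 to 107350344 counts set the precision. Of the 56632 gene identifiers, 53454 matched GENCODE release 44 lifted to GRCh37, which gave names and positions. Counts were tested with edgeR 4.0.16 in R 4.3.3 (filterByExpr, TMM scaling, robust quasi-likelihood fit, 1 coefficient per line), with Benjamini-Hochberg adjustment over 18431 genes. Standard errors are those implied by the F statistic. DESeq2 1.42.0, 2 other filters, another scaling, a replicate block, fits of 2 lines, leaving out each library, and the library placement of the study's tables were alternatives. The fit was tested on simulated data. Python 3.11.15 with pandas 2.3.3, numpy 2.4.6 and matplotlib 3.10.9 made the summaries and figures.

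Besides all 8 members, every listed clade B serpin and protease was named, then up to 4 genes per other list called in the most comparisons, 4 neighbours and the 3 most alike genes per member. KRT1, KRT10 and the macrophage, basal, luminal and mesenchymal markers were named after their values were seen. The members and lists were chosen with earlier results of these data known. P-values weigh each change against the spread between replicates. That spread was estimated over all 4 lines together, with information shared across genes, since each line has only 2 libraries. The M2 libraries, which resembled each other most, enter that estimate in every comparison of the fit of all lines. Their small spread lowers it, so p-values for comparisons among M1, M3 and M4 may be too small.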

Additional observations from a re-analysis of the deposited data

How the results depend on the processing

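Each member's log2 fold change in each comparison (42 values) was refitted under every alternative. All 42 kept direction and side of the threshold with DESeq2-type size factors, a filter of 50 counts in 2 libraries, no robust estimation and no minimum fold, as did 40 with DESeq2, where the other 2 gained a call. Without a filter on low counts 3 members were called in M2 against M1, 4 in M3 against M2 and 5 in M4 against M3. With only the 2 lines compared in the fit, 1 was called in M3 against M1 in place of 4, and 5 in M4 against M1 in place of 7. In M4 against M2 that fit called 5 in place of 4. With libraries placed as the study's tables place them, calls numbered 0 in M3 against M1, M3 against M2 and M4 against M3, and 4 in M4 against M1, and in M2 against M1 the sign turned for SERPINB5 (-0.20), SERPINB4 (-0.12), SERPINB3 (-0.94), SERPINB7 (-0.87) and SERPINB8 (-0.37), none of them called. The cause was not tested.

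Leaving out 1 library gave 1 to 4 calls in M3 against M1, 4 to 7 in M4 against M1, 0 to 3 in M3 against M2, 1 to 5 in M4 against M2, 0 to 4 in M4 against M3 and 0 in M2 against M1. The lone library left in such a line is assumed to vary like the others. The lowest counts came without M3 replicate 2 in M3 against M1 (1), without either M2 library in M3 against M2 (0) and in M4 against M2 (1), and without M4 replicate 1 in M4 against M1 (4) and M4 against M3 (0). Signs turned in M2 against M1 for SERPINB13 (range -2.10 to 0.50) and SERPINB2 (-2.79 to 0.33) without M1 replicate 1, for SERPINB8 (-0.12 to 0.85) without M1 replicate 2 and for SERPINB3 (-0.54 to 1.21) without M1 replicate 2 (-0.54) or M2 replicate 1 (-0.06). They also turned in M3 against M1 for SERPINB3 (-1.38 to 0.37) without M1 replicate 1 and in M3 against M2 for SERPINB7 (-0.32 to 2.87) without M3 replicate 1. None of these values was a call.

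The labels give replicate numbers but no shared batch, and deviations of same-numbered libraries correlated between -0.087 and 0.248. With the replicate block 5 members were called in M4 against M2 in place of 4, and the counts of the other 5 comparisons were as without it. Of the 42 values 37 were as before, SERPINB13 in M3 against M2 (-2.97) and SERPINB7 in M3 against M1 (3.07) and M4 against M2 (3.27) gained a call, and SERPINB2 in M3 against M1 (3.85) and M3 against M2 (5.70) lost one. With 1 CPM added, 16 of the 21 most alike genes were kept. On unscaled totals 28 of 32 mean levels moved by less than 1 SD, and SERPINB5 stood at 1037 CPM in M3 and 1209 CPM in M4, SERPINB3 at 6.16 CPM in M3 and SERPINB8 at 42.7 CPM in M3. SERPINB10 was too shallow for any test.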
